A study of Mus musculus with 12 samples.

Results

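Cyp4a genes encode microsomal cytochrome P450 enzymes that add a hydroxyl group to the omega (terminal) carbon of fatty acids. The omega-hydroxy acid is oxidised to a dicarboxylic acid, which peroxisomes then shorten, a route that runs beside mitochondrial beta-oxidation. Cyp4a10 and Cyp4a14 are classical targets of PPARα, the nuclear receptor that fibrate drugs activate, and their induction is a common readout of PPARα activity in rodent liver. Cyp4a12a is known as a male-predominant hydroxylase of mouse liver and kidney that also acts on arachidonic acid.

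The 6 genes Cyp4a10, Cyp4a12a, Cyp4a12b, Cyp4a14, Cyp4a31 and Cyp4a32 were looked up in the gene symbols of the array's annotation, and every probe set that lists any of them was taken, also where it lists several. This gave 5 of 45101 probe sets. Probe set 1424853_s_at lists Cyp4a31 and Cyp4a10 together, 1423257_at lists Cyp4a14, 1424943_at and 1440134_at each list Cyp4a31, and 1424352_at lists Cyp4a12a. Cyp4a10 was thus measured only together with Cyp4a31. No probe set names Cyp4a12b or Cyp4a32, which are not analysed here. The genes are similar in sequence, so a probe set can also take up signal from a relative.

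Livers of 12 male mice, 6 to 12 weeks old and kept in 12 h light and 12 h dark, were collected at ZT14 (14 h after lights on) and measured on Affymetrix arrays, 1 array a mouse and 3 mice in each of 4 groups. Untreated wild-type mice ate the normal diet, while wild-type, PPARα-null and Clk/Clk mice ate it with 0.5% (w/w) bezafibrate, a fibrate, for 5 days. Wild-type and Clk/Clk mice had the Jcl:ICR background; Clk/Clk mice carry a mutant form of the clock transcription factor CLOCK in both copies. The null mice came from the line 129S4SvJae-PPARalphatm1Gonz/J crossed with Jcl:ICR, so lack of the receptor and strain background cannot be told apart. The study asks which genes under PPARα control in liver also need CLOCK. No mutant went untreated, so a mutant's own level and its response to the drug cannot be told apart either, and in whole liver neither can fewer cells of a type and less RNA per cell.

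The arrays had medians of 5.45 to 5.50 on the log2 scale and maxima of 14.9 to 15. The tissue matched its label: Alb, the hepatocyte product albumin, read 14.8 to 14.9 on all arrays. Summed over 8 hepatocyte markers, the log2 level was 17.4 to 17.5 in untreated wild type, 17.1 in treated wild type, 17.3 to 17.4 in null and 17.2 in Clk/Clk mice. Of 6 kidney markers, a tissue rich in Cyp4a enzymes, Umod and Slc12a1 lay under the filter level (the 40th percentile of the array, 4.87 to 4.92) in every mouse. Kap averaged 5.39 in untreated wild type, 5.93 in treated wild type, 5.88 in null and 6.12 in Clk/Clk mice. Of the 4 kidney markers that passed the filter, 1 was called higher in Clk/Clk than in untreated wild type (0.73) and none lower. A call here means a limma adjusted p under 0.05 and at least 1.5-fold. Of all probe sets, 9.95% were called higher and 9.83% lower in that comparison. The summed kidney level was 7.52 to 7.55 in untreated wild type, 7.58 to 7.68 in treated wild type, 7.65 to 7.77 in null and 7.73 to 7.80 in Clk/Clk mice. Of 6 pancreas markers 4 were measured, and their summed level was 10.3 to 10.4 in untreated mice against 8.80 to 9.15 over the treated groups. The markers did not move together. Of the 3 that passed the filter, 1 was called lower in treated than in untreated wild type (-1.73), as were 8.14% of all probe sets. The median of the 3 was 0.16 and the highest 0.30, and 1 was higher at an unadjusted p under 0.05 in limma. Of 7 Kupffer cell markers 3 were called lower in Clk/Clk than in treated wild type and none higher (0 at an unadjusted p under 0.05 in limma). Of all probe sets, 5.99% were called lower and 2.61% higher there. The summed Kupffer levels were 11.7 to 12.1 in Clk/Clk and 12.3 to 12.8 in treated wild-type mice. They were 12.2 to 12.4 in untreated and 12.4 to 12.6 in null mice. The part of these markers in the results was not tested. The brightest Ppara probe set averaged 9.88 (SD 0.157) in null mice and 10.78 (SD 0.232) in treated wild type, and the brightest Clock set 9.25 (SD 0.162) in Clk/Clk mice and 8.17 (SD 0.282) in treated wild type. The labels do not place either set relative to the altered exon, so they check neither genotype.

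In the RefSeq gene order (assembly GRCm38.p6) the 6 genes share 1 stretch of chromosome 4, with pseudogenes and Cyp4a30b between them. Cyp4a14 and Cyp4a10 are direct neighbours, Cyp4a31 and Cyp4a32 follow, each after a Cyp4b1 pseudogene, and Cyp4b1 closes the stretch. Of the 6 genes, only Cyp4a32 had an entry in the RefSeq promoter table used here. Its 250 bases upstream of the gene start (GRCm38.p6, chr4:115600688-115600937, plus strand) are shown because PPARα is known to act through direct repeats in such regions; no expression value stands beside them. The capitals mark the closest match to the DR1 element that PPARα binds with its partner RXR, AGGTCA repeated in the same direction with any 1 base (N) between the copies.
Cyp4a32: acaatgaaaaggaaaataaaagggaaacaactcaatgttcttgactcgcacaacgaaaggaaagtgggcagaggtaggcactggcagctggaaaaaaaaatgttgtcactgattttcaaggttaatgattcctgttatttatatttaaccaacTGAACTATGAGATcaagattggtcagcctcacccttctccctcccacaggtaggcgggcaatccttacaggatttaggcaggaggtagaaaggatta
The match lies on the minus strand, 97 to 85 bases upstream of the start, and differs from the repeat at 3 positions; both strands were searched, and 24.6% of 32851 promoters of 300 bases hold a match with 3 or fewer mismatches. Neither a single copy of AGGTCA (in 16.3% of promoters) nor CACGTG, the motif that CLOCK binds with BMAL1 (in 7.15%), occurs in the 300 bases around the Cyp4a32 start on either strand.

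Bezafibrate raised all 5 Cyp4a probe sets in wild-type liver, by 0.59 to 7.26 on the log2 scale. Cyp4a31, Cyp4a14 and the joint Cyp4a10 and Cyp4a31 set were among the strongest rises on the array, whereas Cyp4a12a rose by only 1.5-fold. The calls (limma, Benjamini-Hochberg adjusted p under 0.05 over all 28344 probe sets kept, and at least 1.5-fold) covered 11.2% of all probe sets in this direction and 8.14% in the other. None of the 5 sets had a treated wild-type mouse within the untreated range; groups stood apart in this way, with the treated one higher, for 26.9% of all probe sets.

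Cyp4a14, a fatty acid omega-hydroxylase known for its strong response to fibrates in mouse, read 8.48, 8.61 and 10.44 in untreated mice 1, 2 and 3. It read 14.22, 14.23 and 14.30 in treated wild-type mice. Untreated mouse 3 stood well above mice 1 and 2, and all treated mice stood far above it. The mean difference was 5.07 (SE 0.426, 33.7-fold, limma adjusted p = 2.96e-06), in rank the 14th rise of 28344 probe sets. Without untreated mouse 3 the difference was 5.71 (adjusted p = 2.15e-07).

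The joint Cyp4a10 and Cyp4a31 set read 11.22, 10.32 and 11.50 untreated and 14.40, 14.36 and 14.41 in treated wild type. The untreated mice spanned over 1 log2 unit, while the treated mice nearly coincided. The rise was 3.38 (SE 0.219, 10.4-fold, limma adjusted p = 4.29e-07) and ranked 70th.

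Cyp4a31 set 1424943_at read 3.48, 3.42 and 3.86 untreated, under the filter level in each mouse, and 11.20, 10.40 and 10.94 in treated wild type. It went from the bottom of the scale to clear signal, with a measured difference of 7.26 (SE 0.387, limma adjusted p = 1.05e-07). Against the mean filter level of the untreated arrays (4.91), in place of the measured untreated mean of 3.59, it was at least 61.3-fold higher. The set passed the filter only through the treated groups.

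The other Cyp4a31 set, 1440134_at, gave a far less even picture: 6.32, 6.35 and 6.52 untreated, and 12.14, 8.21 and 11.44 in treated wild type. Treated mouse 2 lay more than 3 log2 units below its group mates, though above every untreated mouse. The mean rise was 4.20 (SE 0.859, 18.4-fold, limma adjusted p = 0.00193), and with 1 mouse left out it ranged from 3.43 without treated mouse 1 to 5.40 without treated mouse 2. The same mouse was also lowest on 1424943_at, on the joint set and on Cyp4a12a, and it was lowest of its group for 15 of 21 measured genes of a PPARα target list.

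Cyp4a12a was bright without the drug, at 12.59, 12.43 and 12.49, and read 13.27, 12.97 and 13.02 in treated wild type. The groups did not overlap, and the difference of 0.59 (SE 0.106, limma adjusted p = 8.03e-04) barely reached the 1.5-fold limit. It fell below that limit without untreated mouse 2 (0.55), without untreated mouse 3 (0.58), without treated mouse 1 (0.50) and after renewed quantile normalization (0.58).

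**Figure D1:**
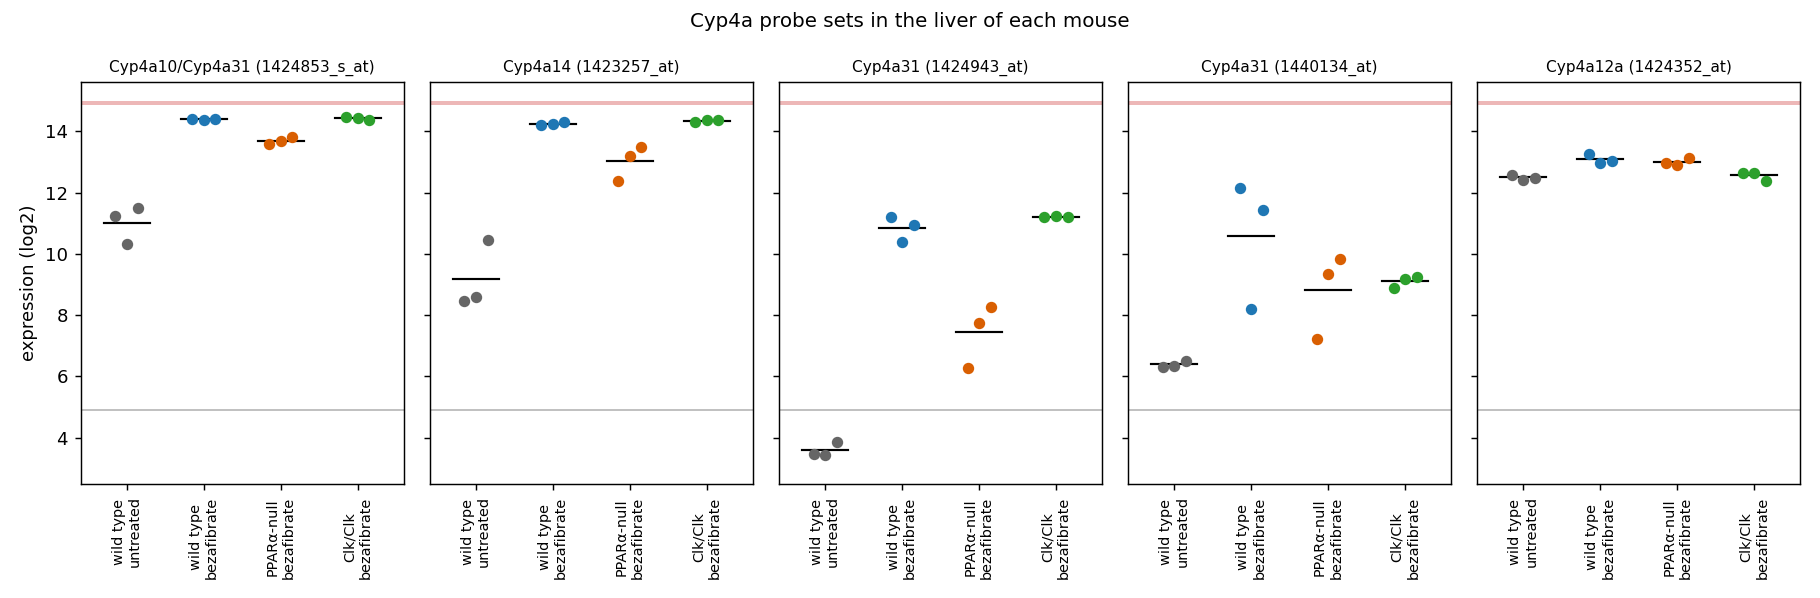
Log2 expression of the 5 Cyp4a probe sets in each of the 12 mice; each point is 1 mouse, black bars are group means, the upper red band spans the array maxima (14.9 to 15) and the lower grey line marks the filter level. Cyp4a14 and the joint Cyp4a10 and Cyp4a31 set press against the top in treated wild-type and Clk/Clk mice, null mice lie between them and the untreated mice, and Cyp4a12a moves little.

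Treated signals of Cyp4a14 and of the joint set lay near the top of the scale. Cyp4a14 was 0.637 to 0.709 below the array's maximum in treated wild type and 0.497 to 0.601 below it in Clk/Clk mice. The joint set was 0.523 to 0.559 and 0.448 to 0.476 below. On the arrays of treated wild-type and Clk/Clk mice these sets ranked between 17 and 35 of all probe sets. Spread between mice was small at that level: the median SD over the 3 treated wild-type mice was 0.0353 for the 63 probe sets with a mean of at least 14 and 0.0917 for probe sets between 10 and 12. Cyp4a14 had an SD of 1.10 untreated and 0.0427 treated, and the joint set 0.613 and 0.0288. Whether the probes were saturated was not tested, and further differences at this level may not show on these arrays. Cyp4a31 set 1424943_at, at 10.40 to 11.25 in treated wild-type and Clk/Clk mice, had more room above it.

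**Figure D2:**
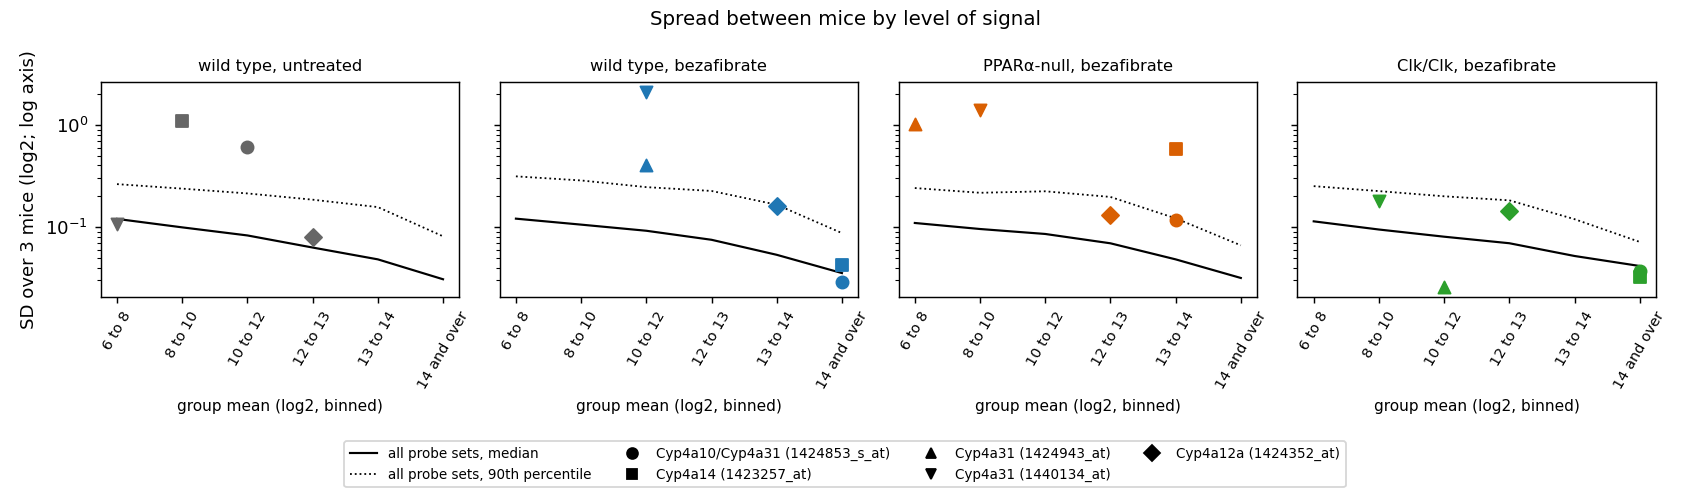
SD over the 3 mice of a group (log2, on a log axis) against the group's mean level in bins. Lines are the median and 90th percentile over all probe sets except array controls, without the filter. Symbols are the Cyp4a sets (untreated 1424943_at, with its mean of 3.59, lies under the lowest bin and is not drawn). The spread of all probe sets falls towards the top of the scale. Cyp4a14 and the joint set lie there in treated wild-type and Clk/Clk mice. Far above the 90th percentile lie 1440134_at in treated wild type (SD 2.10) and, untreated, Cyp4a14 (SD 1.10) and the joint set (SD 0.613). So do 1440134_at (SD 1.39), 1424943_at (SD 1.03) and Cyp4a14 (SD 0.582) in null mice.

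In PPARα-null mice on bezafibrate, 3 Cyp4a probe sets were lower than in treated wild type, where 7.42% of all probe sets were called lower and 4.99% higher. The deficit was 10.6-fold for Cyp4a31 set 1424943_at, 2.34-fold for Cyp4a14 and 1.63-fold for the joint set. The sets did not have the same room on the scale. In treated wild type, Cyp4a14 lay 0.637 to 0.709 and the joint set 0.523 to 0.559 below the array's maximum. Set 1424943_at lay 3.73 to 4.52 below it. Whether this narrowed the smaller deficits was not tested. Set 1440134_at and Cyp4a12a did not pass the test. For the 3 that passed, every null mouse lay below every treated wild-type mouse, as for 22.8% of all probe sets.

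Cyp4a31 set 1424943_at read 6.29, 7.75 and 8.27 in null mice 1, 2 and 3, between the untreated and the treated wild-type ranges. It fell by 3.41 from treated wild type (SE 0.387, limma adjusted p = 5.84e-05). Cyp4a14 read 12.37, 13.19 and 13.50, and it fell by 1.23 (SE 0.426, limma adjusted p = 0.0473). The joint set read 13.57, 13.67 and 13.81 and fell by 0.71 (SE 0.219, limma adjusted p = 0.0298). Null mouse 1 was lowest on all 3 sets and on 1440134_at, and it was also lowest for 16 of the 21 PPARα targets.

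The calls of Cyp4a14 and the joint set were close to the threshold. Cyp4a14 differed by -0.90 (adjusted p = 0.17) without null mouse 1 and by -1.31 (adjusted p = 0.0795) without null mouse 2. Leaving out treated wild-type mouse 1, 2 or 3 gave adjusted p of 0.093, 0.0925 and 0.0985 for Cyp4a14 and of 0.0685, 0.0606 and 0.0673 for the joint set. The joint set also lost its call without null mouse 1 (adjusted p = 0.0894) and without null mouse 2 (adjusted p = 0.0716). In a fit of the 2 groups alone, which does not borrow the wide untreated spread, adjusted p was 0.0135 for Cyp4a14 and 0.00131 for the joint set. The call of 1424943_at held in each of 18 alternatives.

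Cyp4a31 set 1440134_at read 7.22, 9.35 and 9.84 in null mice and overlapped treated wild type, with a difference of -1.79 (95% interval -3.67 to 0.09, limma adjusted p = 0.138). Without treated wild-type mouse 2 the difference was -2.98 (adjusted p = 0.00344). Cyp4a12a read 12.97, 12.89 and 13.14 and overlapped as well, at -0.09 (95% interval -0.32 to 0.14, adjusted p = 0.549).

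Null mice on the drug nevertheless stood above untreated wild type. In all, 3 Cyp4a sets were called higher, where 3.35% of all probe sets were called higher and 3.34% lower. They were Cyp4a14 (3.85, SE 0.426, adjusted p = 1.71e-04), 1424943_at (3.85, SE 0.387, adjusted p = 8.82e-05) and the joint set (2.67, SE 0.219, adjusted p = 2.31e-05), all by limma. Against the untreated filter level in place of the measured signal, 1424943_at was at least 5.76-fold higher. Without untreated mouse 3 the difference of Cyp4a14 was 4.48 (adjusted p = 4.03e-06). Among 28344 probe sets Cyp4a14 and the joint set had the 8th and 29th largest differences upward. Set 1440134_at differed by 2.41 (SE 0.859, adjusted p = 0.07). Cyp4a12a differed by 0.50 (SE 0.106, adjusted p = 0.00743), 1.41-fold and under the fold limit. On all 5 sets every null mouse lay above every untreated mouse, as for 20% of all probe sets.

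In Clk/Clk mice on bezafibrate, none of the 5 Cyp4a probe sets was called different from treated wild type, where 2.61% of all probe sets were called higher and 5.99% lower by limma. At an unadjusted p under 0.05, only Cyp4a12a differed. Its limma adjusted p was 0.00462, and at 1.44-fold it missed only the fold limit. By their means, Cyp4a14, the joint set and 1424943_at were at or slightly above the treated wild-type level, and 1440134_at and Cyp4a12a were below it.

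Cyp4a14 read 14.31, 14.36 and 14.36 in Clk/Clk mice, all above the treated wild-type mice, with a difference of 0.10 (95% interval -0.84 to 1.03, limma adjusted p = 0.894). The joint set read 14.46, 14.43 and 14.38 and overlapped, at 0.03 (95% interval -0.45 to 0.51, adjusted p = 0.931). Cyp4a31 set 1424943_at read 11.20, 11.25 and 11.21, just above treated wild type, at 0.37 (95% interval -0.47 to 1.22, adjusted p = 0.524). The groups were thus apart on Cyp4a14 and 1424943_at, with Clk/Clk higher, as they were for 20.6% of all probe sets. These intervals leave room for differences of about 1 log2 unit on 2 of the sets. They rest on a spread pooled over all groups, not on the 2 groups compared alone. For Cyp4a14 the SD was 0.0427 in treated wild type and 0.0324 in Clk/Clk mice, against 1.10 untreated and 0.582 in null. Over 18 alternatives its limma adjusted p was 0.374 to 0.93.

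Set 1440134_at read 8.90, 9.17 and 9.23 in Clk/Clk mice, inside the wide treated wild-type range, at -1.50 (95% interval -3.38 to 0.38, adjusted p = 0.235). Without treated wild-type mouse 2 it was lower by limma, at -2.69 (adjusted p = 0.0112). The means of the 2 Cyp4a31 sets thus lay on opposite sides of treated wild type, neither was called with all mice, and the difference between the sets was not tested. The labels do not say which transcripts each of them reads.

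Cyp4a12a read 12.64, 12.65 and 12.39 in Clk/Clk mice, below every treated wild-type mouse; 19.9% of all probe sets stood apart in that direction. The difference of -0.53 (SE 0.106, limma adjusted p = 0.00462) was 1.44-fold and under the fold limit, and it was called without treated wild-type mouse 2 (-0.59, adjusted p = 0.00763).

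Against untreated wild type, which all 3 treated groups share as their control, 4 sets were higher in treated Clk/Clk mice, where 9.95% of all probe sets were called higher and 9.83% lower. On these 4, every Clk/Clk mouse lay above every untreated mouse, as for 27.3% of all probe sets. Set 1424943_at had a measured difference of 7.63 (SE 0.387, limma adjusted p = 5.93e-08) and was at least 79.4-fold above the untreated filter level. Cyp4a14 was higher by 5.17 (SE 0.426, adjusted p = 2.23e-06; 5.80 without untreated mouse 3) and the joint set by 3.41 (SE 0.219, adjusted p = 3.41e-07). Set 1440134_at was higher by 2.71 (SE 0.859, adjusted p = 0.0234), a call lost without untreated mouse 1, 2 or 3 (adjusted p = 0.0568, 0.0556 and 0.0511) and without Clk/Clk mouse 2 or 3 (0.0575 and 0.0603). Cyp4a12a overlapped untreated wild type, at 0.06 (95% interval -0.17 to 0.29, adjusted p = 0.69).

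Set directly against each other on the drug, Clk/Clk mice exceeded null mice on 3 sets, where 7.21% of all probe sets were called higher and 7.3% lower. On these 3 the groups did not overlap, as for 24.3% of all probe sets. The difference was 3.78 for 1424943_at (SE 0.387, limma adjusted p = 1.93e-05). It was 1.32 for Cyp4a14 (SE 0.426, adjusted p = 0.0314) and 0.74 for the joint set (SE 0.219, adjusted p = 0.0214). Both smaller calls were lost without null mouse 1 (adjusted p = 0.123 and 0.0677), null mouse 2 (0.0572 and 0.0557), Clk/Clk mouse 1 (0.0674 and 0.0573) or Clk/Clk mouse 2 (0.0741 and 0.0538), and that of Cyp4a14 also without Clk/Clk mouse 3 (0.0742). Cyp4a12a went the other way, at -0.44 (SE 0.106, adjusted p = 0.00712), 1.36-fold and under the fold limit, with the groups again apart, as for 24.5% in that direction. Set 1440134_at differed by 0.29 (95% interval -1.59 to 2.17, adjusted p = 0.83).

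**Figure D3:**
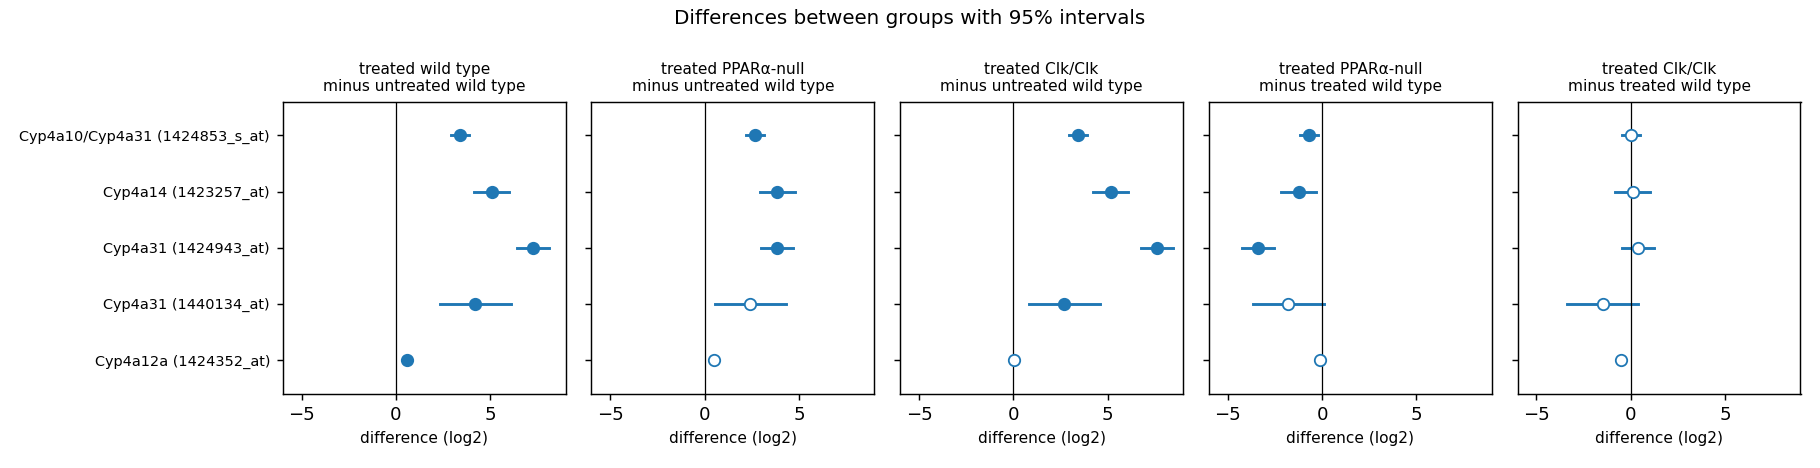
Differences between group means of the 5 Cyp4a probe sets (log2, limma) with 95% intervals, which are narrower than the marker for Cyp4a12a; filled points passed adjusted p under 0.05 and 1.5-fold, open points did not. Points of Clk/Clk minus treated wild type are all open, and 1424943_at is the set farthest below 0 for null minus treated wild type.

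Ordered by mean level, Cyp4a14, the joint set and 1424943_at gave the same sequence of groups: untreated, null, treated wild type, Clk/Clk. Neighbours in this order differed by the test, except treated wild type and Clk/Clk. For Cyp4a12a the order was untreated, Clk/Clk, null and treated wild type, and no neighbouring pair was called, although Clk/Clk and null mice did not overlap. For 1440134_at it was untreated, null, Clk/Clk and treated wild type, again with no neighbouring pair called.

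Of the genes that act right after omega-hydroxylation, most changed by less than the fold limit. The lists that follow held 1 probe set a gene, and their measured genes are those with a probe set that passed the filter. Over all probe sets the median difference was -0.02 for bezafibrate in wild type, 0.02 for null and 0.02 for Clk/Clk against treated wild type. With bezafibrate in wild type 11.2% of all probe sets were called higher and 8.14% lower. Against treated wild type the shares were 4.99% higher and 7.42% lower in null, and 2.61% higher and 5.99% lower in Clk/Clk mice. Of 9 measured dehydrogenases that can turn omega-hydroxy acids into dicarboxylic acids, 1 rose and 1 fell with bezafibrate in wild type (median 0.21), close to the shares of all probe sets. At an unadjusted p under 0.05, without the fold limit, 4 were higher and 4 lower in limma. Aldh3a2, which oxidises fatty aldehydes, rose by 3.03 (SE 0.143, limma adjusted p = 5.1e-08) and stood at -1.92 in null against treated wild type (adjusted p = 2.58e-06). Adh4, an alcohol dehydrogenase, changed by -1.41 (SE 0.111, adjusted p = 1.83e-06). In null against treated wild type 2 of the 9 were lower (median -0.20), the second being Aldh9a1 (-0.64, adjusted p = 2.51e-04). None of the 9 was called in Clk/Clk mice by limma (median -0.02; 2 were lower at an unadjusted p under 0.05).

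Activation, transport and peroxisomal oxidation of dicarboxylic acids moved more broadly. Of 19 measured genes 15 rose and 1 fell in treated wild type (median 1.35). Ehhadh, the bifunctional enzyme of peroxisomal beta-oxidation, rose by 2.60 (SE 0.128, adjusted p = 6.28e-08), Pex11a, a peroxisome division factor, by 2.15 (SE 0.0957, adjusted p = 3.58e-08) and Acot8, a peroxisomal thioesterase, by 2.09 (SE 0.0891, adjusted p = 2.55e-08). In null against treated wild type 14 were lower and 1 higher (median -1.10), with Abcd2, a peroxisomal fatty acyl-CoA transporter, at -4.95 (SE 0.252, adjusted p = 1.74e-07). The null mean of Abcd2, 3.31, lay under the filter level, so the size of this difference rests on signal near the bottom of the scale. In Clk/Clk mice 1 of the 19 was lower, near the 5.99% of all probe sets called lower. It was Nudt7 (-0.77), a peroxisomal CoA hydrolase. None was higher (3 were at an unadjusted p under 0.05 in limma), and the median of the 19 was 0.07.

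Of 7 listed genes that pass electrons to P450 enzymes 6 were measured. Por, the P450 oxidoreductase, had no probe set that lists it alone. Of the 6, 2 rose with the drug in wild type (median 0.12). These were Cyb5r1 (1.05, SE 0.163, adjusted p = 2.96e-04), a cytochrome b5 reductase, and Cyb5b (0.86, SE 0.103, adjusted p = 4.65e-05), a cytochrome b5. None of the 6 was called in null mice by limma (median -0.04; at an unadjusted p under 0.05, 2 were higher and 1 lower). In Clk/Clk mice 1 was lower, Cyb5r3 (-1.07, SE 0.112, adjusted p = 1.16e-04; median -0.02).

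Other fatty acid hydroxylases did not share the rise. Of 8 measured genes outside the Cyp4a family, 5 fell and none rose with bezafibrate in wild type (median -0.67; 1 was higher at an unadjusted p under 0.05). Cyp4f14, a leukotriene and fatty acid hydroxylase, changed by -4.35 (SE 0.169, 20.3-fold lower, adjusted p = 1.39e-08), Cyp4v3 by -2.20 (SE 0.0888, adjusted p = 1.65e-08) and Cyp2u1 by -1.09 (SE 0.105, adjusted p = 8.33e-06). In null against treated wild type 4 were higher and 1 lower (median 0.55), Cyp4f14 by 3.22 (adjusted p = 2.05e-07) and Cyp4v3 by 1.04 (adjusted p = 7.33e-06). In Clk/Clk mice Cyp4b1 was higher (0.67, adjusted p = 0.00109) and Cyp4f14 lower (-1.25, adjusted p = 5.42e-04; median 0.14). Cyp4b1, the next gene after Cyp4a32 on the chromosome, changed by -0.64 with the drug in wild type (adjusted p = 3.93e-04). Efcab14 (0.00, adjusted p = 0.993) and Atpaf1 (0.07, adjusted p = 0.549), which follow it, were not called.

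Other classical PPARα targets rose in treated wild type and were mostly lower in null mice. Of 21 measured targets 17 rose in treated wild type (median 2.29), and 14 were lower and 1 higher in null against treated wild type (median -1.31). Against untreated mice, 9 were higher in treated null mice (median 0.53), where 3.35% of all probe sets were called higher. In treated Clk/Clk mice 17 were higher (median 2.13), where the share of all probe sets was 9.95%. None was called between Clk/Clk and treated wild type by limma (median 0.20; at an unadjusted p under 0.05, 4 were higher and 1 lower). The fatty acid transporter Cd36 exceeded untreated wild type by 4.95 in treated wild type, 2.67 in null and 5.29 in Clk/Clk mice. Cpt2 and Hadha, enzymes of mitochondrial beta-oxidation, were lower in null than in treated wild type, by differences of -1.38 and -1.24. These comparisons share their control mice, and the difference between the Cyp4a sets and the list was not tested.

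**Figure D4:**
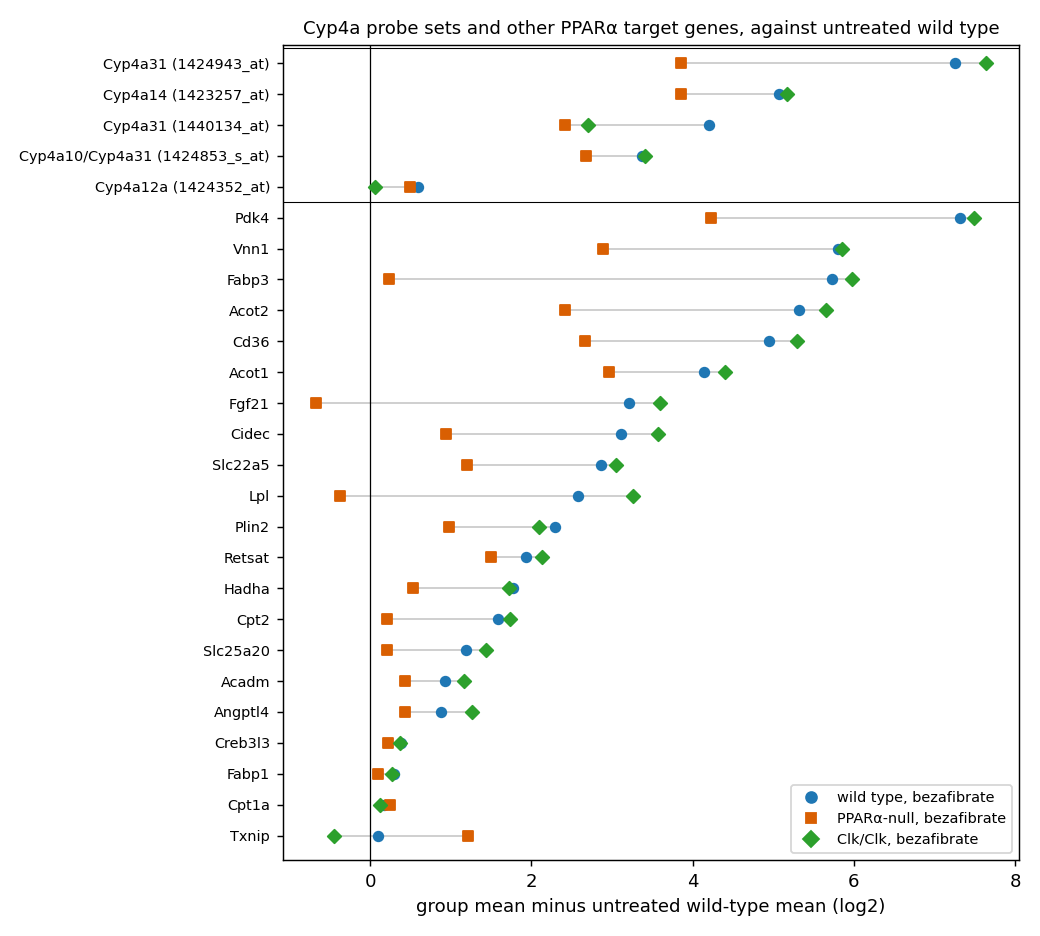
Mean difference from untreated wild type (log2) in each treated group, for the 5 Cyp4a probe sets above the line and 21 other PPARα target genes below it; grey lines join the groups of 1 gene. Clk/Clk points mostly lie close to treated wild-type points, and null points reach from -0.67 (Fgf21, a liver hormone) to 4.22 (Pdk4, a kinase that restrains glucose oxidation) among the targets, both named after their values were seen.

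Because Cyp4a12a is known as male-predominant, sex-dependent liver genes were examined in these male mice. Of 15 measured male-predominant genes 12 fell and none rose in treated wild type (median -1.53), 11 were higher and none lower in null against treated wild type (median 1.40), and 1 was higher and 7 lower in Clk/Clk mice (median -0.70). Hsd3b5, a steroid dehydrogenase, changed by -7.40 with the drug (SE 0.412, adjusted p = 1.44e-07), and Slco1a1, an organic anion transporter, by -2.31 (SE 0.0823, adjusted p = 7.48e-09). Cyp4a12a, at 0.59, went against these. In Clk/Clk mice Slco1a1 was lower than in treated wild type (-1.99, adjusted p = 3.57e-07), as was Ugt2b1, a glucuronosyltransferase (-1.16, adjusted p = 5.39e-05), and Elovl3, a fatty acid elongase, was higher (2.18, adjusted p = 2.3e-04).

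Of 13 measured female-predominant genes 7 rose and 2 fell with the drug in wild type (median 1.05), among them Cyp2b9 (3.61, adjusted p = 2.28e-06), and in null against treated wild type 1 was higher and 6 lower (median -0.53). In growth hormone signalling, which sets much of the sex difference of mouse liver, 1 of 13 measured genes rose and 9 fell in treated wild type (median -1.28), including the estrogen receptor Esr1 (-2.09, adjusted p = 2.73e-06). Esr1 was lower again in Clk/Clk than in treated wild type (-2.22, adjusted p = 2.09e-05). Of 11 measured genes for PPARα, its partners and clock factors, 1 rose and 4 fell with the drug in wild type (median -0.08). Of all probe sets, 11.2% were called higher and 8.14% lower in that comparison, so the 1 rise was near the share of all probe sets. The coactivator Ppargc1a changed by -2.53.

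For the joint set, Cyp4a14 and Cyp4a12a, the genes whose pattern lay closest were ranked by the root mean square difference of log2 values centred on their own mean over the 12 mice, a description that reflects the differences between groups. For the joint set they were Neat1, a nuclear long noncoding RNA, at 0.329, the kinase Sgk2 at 0.436, the retinol saturase Retsat at 0.442, malic enzyme Me1 at 0.465 and Ehhadh at 0.471. For Cyp4a14 they were Acot1, an acyl-CoA thioesterase, at 0.609, the lipid droplet protein Hsd17b13 at 0.681, Cd36 at 0.724, the pantetheinase Vnn1 at 0.725 and the phosphatidylcholine carrier Pctp at 0.787. Hsd17b13 differed from Cyp4a14 in null mice, where it exceeded untreated wild type by 4.42, against 4.29 in treated wild type. For Cyp4a12a they were Nek8 at 0.099, 3110040N11Rik at 0.11, Cilk1 and Pdlim7 at 0.115 each and Prkcb at 0.117, all of which moved by less than 1 log2 unit between groups.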

How the data were processed

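The deposited log2 values, 1 per probe set and liver, were made by the authors with RMA per the submitters' processing notes, which give no version or settings. All 12 columns were used unchanged. Of 45101 probe sets 64 were controls; of the rest, the platform annotation gave 34945 a single symbol, 932 several and 9160 none. Symbols were matched to the RefSeq gene table (GRCm38.p6), with 204 probe sets unmatched. A probe set was kept if at least 3 arrays had it at or above their own 40th percentile; this held for 28344, all 5 Cyp4a sets included.

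The 12 arrays were fitted at once with limma 3.58.1 (R 4.3.3; lmFit, contrasts.fit, eBayes; 4 group means, 8 residual degrees of freedom), with Benjamini-Hochberg adjustment over the kept probe sets. Calls needed an adjusted p under 0.05 and at least 1.5-fold. Arrays have no sequencing depth, and 3 mice per group limit the precision. The labels number the livers of a group without naming litters or cages, so p-values measure the spread between these samples.

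Lists held 1 probe set a gene, the brightest with exactly that symbol among those kept, and share some genes. Summed marker levels took the brightest with or without the filter. Named were all Cyp4a sets, Ppara and Clock, up to 4 genes per list and main comparison by adjusted p, the 5 genes closest in pattern to each of 3 members, and chromosomal neighbours. Members and lists were chosen with earlier results of these data known. Alternatives covered the filter, normalization, array weights, eBayes options, groups fitted, replicate number as a block, fold limit, 1 probe set per gene and each mouse left out. The fit was tested on simulated data. Python 3.11.15 and pandas 2.3.3 handled the tables.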

Additional observations from a re-analysis of the deposited data

How the results depend on the processing

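The results were recomputed under 18 alternatives each, and no Cyp4a difference changed sign among those called. Without a fold limit, Cyp4a12a added 1 call lower for Clk/Clk against treated wild type, 1 lower for Clk/Clk against null and 1 higher for null against untreated wild type. With each mouse left out in turn, the Cyp4a sets called lower in null against treated wild type numbered 1 to 3, those lower in Clk/Clk against treated wild type 0 to 2, and those higher in Clk/Clk against null 1 to 3. Cyp4a14 in null against treated wild type also lost its call with no filter (adjusted p = 0.0542), renewed quantile normalization (0.0507), array weights (0.0676) and robust eBayes (0.0639). Set 1440134_at in null against untreated wild type gained a call with array weights (0.0432), with the 2 groups alone (0.0293) and without null mouse 1 (0.0269). A 2-fold limit removed Cyp4a12a for bezafibrate in wild type and the joint set for null against both other treated groups. Fits with a mouse left out have fewer degrees of freedom, and treated Cyp4a14 and the joint set lie near the top of the scale. The part of either in these shifts was not tested, nor was any other cause.

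With the replicate number as a block, bezafibrate in wild type gave 5 Cyp4a sets called higher and null against treated wild type 3 lower, and no other Cyp4a call changed. The labels do not say whether equal numbers link mice of different groups. Deviations from group means correlated at -0.0941 to 0.087 over 18 same-number pairs. Over 36 pairs of different numbers they correlated at -0.147 to 0.144, and 4 of 12 mice correlated best with their own number.

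Over all probe sets, bezafibrate in wild type gave 5477 calls, against 12768 without a fold limit, 2332 at 2-fold and 2800 with 1 probe set per gene. Null against treated wild type gave 3516 against 8770, 1380 and 1829, and Clk/Clk against treated wild type 2437 against 6396, 873 and 1241. Null against untreated gave 1896 against 5619, 645 and 906, Clk/Clk against untreated 5607 against 12404, 2321 and 2648, and Clk/Clk against null 4113 against 9712, 1725 and 2071.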
